A study of Homo sapiens with 39 samples.

Results

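The 10 genes described here encode parts of large chromatin-modifying machines: TRRAP, KAT5 and EP400 of the TIP60 complex, the RUVBL1 and RUVBL2 ATPases, INO80 with ACTR5 and ACTR8, and SRCAP with ACTR6. Guides were assigned by name, a guide counting as a member when its label without the closing number is one of the 10 symbols. This gave 100 of the 12214 guides of a custom epigenetic CRISPR knockout library (10 of 1115 tested genes, 10 guides each) and 40 of the 77441 guides of a whole-genome knockout library (10 of 19101 tested genes, 4 guides each). All 10 symbols are current RefSeq symbols. The files name guides without their sequences, so the guides are described here by number and not by target site.

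All cells came from A375, a human melanoma line with an activating BRAF mutation. Every group, controls included, already carried a knockout of either MED12 or MED23, both subunits of the Mediator coactivator complex. No group with intact Mediator is analysed here. MED12 knockout cells with the epigenetic library were sequenced at day 0, and at days 8 and 14 in DMSO or in 2 µM vemurafenib, an inhibitor of mutant BRAF. MED12 knockout cells with the whole-genome library followed the same plan. MED23 knockout cells with the epigenetic library were sequenced at day 0 and at day 14 in DMSO or in 1 µM vemurafenib. Each of the 13 groups had 3 libraries. The labels say neither whether a knockout line was 1 clone or a pool, nor whether the 3 libraries of a group came from separate transductions, so p-values measure the spread between these libraries, which may be technical. Guide counts do not measure MED12 or MED23 themselves and so do not check the knockout labels.

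TRRAP is a very large pseudokinase without catalytic activity that docks activators such as MYC, and it is shared by the TIP60 and SAGA acetyltransferase complexes. In TIP60, KAT5 acetylates histones H4 and H2A and EP400 is the ATPase that exchanges H2A for the variant H2A.Z. SRCAP is the ATPase of a related complex that deposits H2A.Z, with the actin-related protein ACTR6 as a subunit. INO80 is the ATPase of a complex that slides nucleosomes at promoters and replication forks, with ACTR5 and ACTR8 as subunits. RUVBL1 and RUVBL2 form a ring that is built into all 3 remodellers and also acts in R2TP, a co-chaperone that assembles other large complexes, so their loss is not specific to chromatin. In a pooled screen, cells that lose a gene needed for proliferation are outgrown and their guides fall in abundance.

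Depth was 16385695 to 20814734 guide reads a library in the MED12 epigenetic screen, 22846325 to 28994690 in the MED23 screen and 47766947 to 87591804 in the whole-genome screen. Levels are in CPM, read counts scaled to a common library size (TMM), and summed over a gene's guides. A gene score is the mean over a gene's guides of log2 CPM, and a change is a difference of gene scores ± its standard error from 3 libraries a group. The standard error takes libraries as unpaired, also in both MED12 screens, where replicate numbers pair them. Because the score averages logs, a few guides that vanish can move it much more than the summed CPM. A guide was called by edgeR, and a gene by robust rank aggregation of its edgeR guide tests (edgeR/RRA), at an adjusted p below 0.05 over all guides or genes of the table. Scaling assumes that most guides do not change. Guides that target no gene (CTRL guides) had a median log2 fold change against day 0 of 1.21 in MED23 DMSO libraries and 0.62 in MED12 DMSO libraries at day 14. Guides that cut the AAVS1 safe harbour had medians of 0.42 and 0.38. Scaling on the control guides instead would lower the median day-14 DMSO change over all genes by 0.58 in MED23 cells and 0.29 in MED12 cells, and would raise that of vemurafenib against DMSO by 0.14 in MED23 cells. It would move the median change from day 0 to vemurafenib in MED23 cells by -0.44. No member call changed direction under that scaling.

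In MED23 knockout cells, guides to TRRAP, RUVBL1 and RUVBL2 were lost during 14 days in DMSO. Of the 10 members these 3 fell, and none rose, where 12.6% of all genes fell. Summed TRRAP abundance was 642.4, 649.0 and 634.8 CPM in the day-0 libraries and 125.2, 111.8 and 120.3 CPM in the DMSO libraries. The 3 DMSO libraries lay close together and far below day 0, at 18.5% of its mean. The TRRAP gene score fell by 4.02 ± 0.09 on the log2 scale (edgeR/RRA adjusted p = 0.000269). All 10 TRRAP guides were called lower, with log2 fold changes from -1.29 for TRRAP_6 to -6.99 for TRRAP_1. RUVBL1 stood at 620.0, 634.5 and 613.7 CPM at day 0 and at 61.3, 60.9 and 97.2 CPM in DMSO. Its score fell by 4.35 ± 0.52 (edgeR/RRA adjusted p = 0.0266), with 7 of 10 guides called lower. That call was lost with control-guide scaling (edgeR/RRA adjusted p = 0.0953), with day-0 and DMSO libraries fitted alone (0.0636) and without DMSO replicate 2 (0.108). RUVBL2 stood at 668.0, 650.2 and 697.7 CPM at day 0 and at 96.55, 137.6 and 106.2 CPM in DMSO, a fall of 2.95 ± 0.19 (edgeR/RRA adjusted p = 0.000179) with all 10 guides called lower.

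The other 7 members did not pass at the gene level. The KAT5 score stood at -2.01 ± 0.29 against day 0 (edgeR/RRA adjusted p = 0.308), and its 10 guides were uneven. KAT5_2, KAT5_7 and KAT5_10 had log2 fold changes of -3.91, -4.18 and -5.16, while the other 7 lay between -1.13 and -0.07. INO80 stood at -1.53 ± 0.06 (edgeR/RRA adjusted p = 0.353), with guides from -4.29 for INO80_3 to 1.26 for INO80_10, which was called higher. ACTR8, SRCAP and ACTR6 stood at -1.26 ± 0.11, -1.20 ± 0.06 and -0.88 ± 0.11. EP400 (-0.26 ± 0.08) and ACTR5 (-0.23 ± 0.18) had the values nearest to 0 among the 10. In 9 of 10 members every DMSO library had a lower gene score than every day-0 library, ACTR5 being the exception, where 49.1% of all genes did so. At the level of guides, 53 of 100 were called lower and 1 higher, where 21.8% of all guides were called lower and 14.4% higher. With limma on gene scores, a test that does not ask guides to rank together, 8 of 10 members were called lower (all but EP400 and ACTR5), against 43.7% of all genes. The order by gene score was RUVBL1, TRRAP, RUVBL2, KAT5, INO80, ACTR8, SRCAP, ACTR6, EP400 and ACTR5. Neighbours closer than their summed standard errors were RUVBL1 and TRRAP, ACTR8 and SRCAP, and EP400 and ACTR5.

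With vemurafenib, TRRAP guides in MED23 knockout cells were more abundant than in DMSO and below their day-0 level. The 3 vemurafenib libraries held 446.3, 475.8 and 560.0 CPM of TRRAP guides, which is 76.9% of the day-0 mean and above every DMSO library. Against DMSO the TRRAP score rose by 3.49 ± 0.10 (edgeR/RRA adjusted p = 0.000298), and 7 of its 10 guides were called higher. TRRAP was the 1 member of 10 that rose, where 7.80% of all genes did. It passed in all 14 alternative fits, with adjusted p from 1.81e-09 to 0.0012 (edgeR/RRA, or limma at the lower end). Against day 0 the vemurafenib libraries stood at -0.52 ± 0.03 (edgeR/RRA adjusted p = 1; -0.96 with control-guide scaling) and lay below all 3 day-0 libraries, and none of the 10 TRRAP guides was called. From day 0 to vemurafenib, CTRL and AAVS1 guides had median log2 fold changes of 1 and 0.32, both above every TRRAP guide. The value against DMSO therefore describes guides that were depleted less with drug, not guides enriched over the starting pool.

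The guides show this one by one. TRRAP_1 held 42.6, 37.3 and 34.7 CPM at day 0, less than 1 CPM in each DMSO library (0.0351, 0.190 and 0.657 CPM) and 22.5, 17.6 and 20.3 CPM in vemurafenib. TRRAP_7 held 110, 117 and 107 CPM at day 0, 17.2, 13.2 and 13.0 CPM in DMSO, and 115, 97.1 and 129 CPM in vemurafenib, where it overlapped day 0. TRRAP_2 differed least between the arms (log2 fold change 0.59, not called), going from 61.3, 68.9 and 62.2 CPM to 34.6, 12.1 and 31.6 CPM in DMSO and 37.8, 43.5 and 37.0 CPM in vemurafenib. Across the 10 guides the change from day 0 spanned -6.99 to -1.29 in DMSO and -1 to 0.14 in vemurafenib, on the log2 scale. TRRAP_1, TRRAP_3, TRRAP_9 and TRRAP_10, lost most in DMSO, also had the lowest values with drug, from -1 for TRRAP_10 to -0.71 for TRRAP_3. TRRAP_2, among the guides lost least in DMSO (-1.3), was nearly as low with drug at -0.70.

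RUVBL1 and RUVBL2 lay between their DMSO and day-0 levels with drug. RUVBL1 held 204.4, 265.9 and 205.3 CPM in vemurafenib, above every DMSO library and below every day-0 library. Its score differed from DMSO by 2.61 ± 0.54 (edgeR/RRA adjusted p = 0.172) and from day 0 by -1.74 ± 0.14 (adjusted p = 0.528, edgeR/RRA), with 4 guides called higher than in DMSO. RUVBL1 passed against DMSO when DMSO replicate 1 or DMSO replicate 3 was left out. RUVBL2 held 176.1, 208.2 and 346.5 CPM in vemurafenib, a difference from DMSO of 1.30 ± 0.28 (edgeR/RRA adjusted p = 0.181). Against day 0 RUVBL2 fell by 1.65 ± 0.22 with drug (edgeR/RRA adjusted p = 0.00213), with 6 guides called lower. Without vemurafenib replicate 1, RUVBL2 passed higher and EP400 passed lower, so that 3 members were called against DMSO.

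INO80 was the other member called lower with drug than at day 0. Its libraries held 365.2, 364.4 and 400.8 CPM at day 0, 250.5, 251.8 and 284.2 CPM in DMSO, and 212.3, 175.1 and 174.8 CPM in vemurafenib. Against day 0 its score fell by 1.27 ± 0.13 with drug (edgeR/RRA adjusted p = 0.0362), with 6 guides called lower. The summed CPM was lower in vemurafenib than in DMSO, while the gene score differed by 0.26 ± 0.13 (edgeR/RRA adjusted p = 0.180): INO80_2 and INO80_10 were called lower than in DMSO and INO80_3 higher. RUVBL2 and INO80 were the 2 members of 10 that fell from day 0 to vemurafenib, where 10.2% of all genes fell. Gene scores of 9 members lay below every day-0 library, against 39.1% of all genes, and ACTR6 overlapped. Of the member guides 25 were called lower and 1 higher (ACTR6_7), where 12.2% and 13.1% of all guides were. The INO80 call ended with control-guide scaling (edgeR/RRA adjusted p = 0.108), and without day-0 replicate 3 (0.0604) or vemurafenib replicate 3 (0.0840).

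Summed levels of the remaining members in MED23 knockout cells are given as ranges over 3 libraries. KAT5 ranged over 595.9 to 649.8 CPM at day 0, 258.3 to 298.1 in DMSO and 346.0 to 418.5 in vemurafenib. SRCAP ranged over 451.3 to 485.8, 229.5 to 260.2 and 323.4 to 463.8 CPM in the same order. ACTR8 ranged over 733.5 to 756.8, 339.2 to 398.3 and 423.9 to 725.7 CPM. For these 3 genes vemurafenib lay above DMSO in every library. ACTR6 ranged over 592.8 to 637.1, 309.3 to 394.6 and 585.6 to 835.4 CPM, so that with drug it overlapped day 0. EP400 ranged over 831.1 to 863.7, 648.3 to 795.5 and 566.0 to 743.7 CPM, and ACTR5 over 594.0 to 624.3, 564.7 to 652.8 and 595.0 to 639.5 CPM. ACTR5 overlapped in all 3 groups.

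In gene scores, ACTR6 differed from DMSO by 0.80 ± 0.11 (edgeR/RRA adjusted p = 0.0938) and stood at -0.08 ± 0.04 against day 0. Its ACTR6_3, ACTR6_7 and ACTR6_8 guides were called higher than in DMSO. KAT5 differed from DMSO by 0.84 ± 0.30, ACTR8 by 0.68 ± 0.20 and SRCAP by 0.36 ± 0.15, and none of the 3 passed edgeR/RRA. ACTR5 (0.08 ± 0.18) and EP400 (-0.26 ± 0.11) overlapped their DMSO libraries. In 8 of 10 members every vemurafenib library lay above every DMSO library, against 36.5% of all genes. Over all members 20 guides were called higher than in DMSO and 2 lower, where 7.31% and 1.06% of all guides were. With limma on gene scores 7 of 10 members were higher, against 33.2% of all genes. Reads of CUL3 guides made up 16.0% to 26.4% of the vemurafenib libraries and 0.167% to 0.205% of the DMSO libraries of these cells. The part of this share in the members' values was not tested.

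The level of TRRAP with drug can be set beside the other genes lost most in MED23 DMSO cells, as a description. In DMSO 77 genes had a gene score change of -3 or lower, and their median change from day 0 with vemurafenib was -2.09. TRRAP at -0.52 was the second highest of the 77. The highest was MAP2K1, the kinase MEK1 below BRAF, at -0.33, and the next after TRRAP was BRAF itself at -0.98. RUVBL1 ranked 24 of 77 at -1.74. In MED12 knockout cells the same 77 genes had medians of -1.63 in DMSO and -1.57 with drug.

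In MED12 knockout cells TRRAP and RUVBL2 guides were lost as well, and no member passed for vemurafenib against DMSO. At day 8 in DMSO 2 of 10 members fell, where 4.93% of all genes fell. TRRAP held 401.8, 370.7 and 363.0 CPM at day 0 and 275.6, 232.7 and 197.5 CPM at day 8 in DMSO, without overlap. Its score fell by 1.31 ± 0.13 (edgeR/RRA adjusted p = 0.0162). RUVBL2 held 339.1, 380.7 and 367.9 CPM at day 0 and 210.8, 243.0 and 187.2 CPM at day 8, a fall of 1.03 ± 0.18 (edgeR/RRA adjusted p = 0.00497). No single member guide was called at day 8, where 0.0327% of all guides were and 498 had an unadjusted p below 0.05. Gene scores of 9 of 10 members, all but EP400, lay below every day-0 library, against 34.6% of all genes. KAT5 (-0.82 ± 0.11), RUVBL1 (-0.72 ± 0.21) and ACTR8 (-0.59 ± 0.08) did not pass. Replicate numbers pair the libraries of this screen, and with the replicate number as a block ACTR8 passed too (edgeR/RRA adjusted p = 0.0456). Without DMSO replicate 3 at day 8 no member passed, and without DMSO replicate 2 KAT5 and ACTR8 passed as well.

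By day 14 in DMSO, TRRAP was the 1 member of 10 called lower, where 2.42% of all genes were. It held 355.3, 195.7 and 237.9 CPM, so the summed level still reached 69.5% of day 0, while the score fell by 2.20 ± 0.28 (edgeR/RRA adjusted p = 0.0202; blocking on replicate number gave 0.0458). The sum and the score differ since the score weighs every guide alike. TRRAP_1 had no read in any of the 3 DMSO libraries, which at a floor of 3 reads a library is at least 48.0-fold below day 0. TRRAP_10 and TRRAP_7 were called lower with log2 fold changes of -4.20 and -2.48. TRRAP_6 and TRRAP_8 stood at 0.89 and 0.82, and TRRAP_9 at -0.02, none of them called. With TRRAP_1 set to the floor, the score change is -1.92. The TRRAP call was lost when guides with a mean count under 100 were removed (edgeR/RRA adjusted p = 0.172) and without DMSO replicate 1 (0.104) or DMSO replicate 3 (0.105).

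RUVBL2 stood at 222.8, 215.8 and 203.6 CPM at day 14 in DMSO, below all day-0 libraries. Its change was -1.42 ± 0.17 (edgeR/RRA adjusted p = 0.0624), and it passed with the replicate block (0.0206). RUVBL1 held 369.6, 602.3 and 438.6 CPM, with a score change of -1.03 ± 0.58 (edgeR/RRA adjusted p = 0.872). Its summed level was 109% of day 0, led by RUVBL1_3, which had 743, 732 and 827 reads at day 0 and 2135, 3663 and 1138 in DMSO. That guide was called higher (log2 fold change 2.07). In MED23 knockout cells the same guide was called lower (-4.87), with 1, 0 and 197 reads in DMSO. Its difference between the screens was not called (6.84, edgeR adjusted p = 0.0545). KAT5, ACTR8, INO80, ACTR5 and SRCAP had changes from -1.06 to -0.64, and ACTR6 (-0.29 ± 0.15) and EP400 (-0.26 ± 0.25) overlapped day 0. At day 14, 8 of 10 members had every DMSO library below every day-0 library, against 37.2% of all genes. In all, 2 member guides were called higher and 4 lower where 2.27% of all guides were called, and with the replicate block 24 were called, where 12.8% of all guides were. With limma on gene scores 7 of 10 members were lower, against 28.2% of all genes.

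Vemurafenib at 2 µM gave no member call in MED12 knockout cells. At day 8, 0 of 10 members passed, where 1.70% of all genes did, and at day 14, 0 of 10, where 1.43% did. No edgeR, DESeq2 or limma fit called a member at either day. TRRAP held 262.6, 275.2 and 205.0 CPM at day 8 with drug and 178.9, 292.9 and 206.9 CPM at day 14. Its score differed from DMSO by 0.24 ± 0.28 at day 8 (edgeR/RRA adjusted p = 0.681) and by 0.29 ± 0.50 at day 14 (adjusted p = 0.899, edgeR/RRA). These standard errors do not use the replicate pairs. Taken as groups, without regard to replicate pairs, all 10 members overlapped between the arms at both days, and the replicate block, which uses the pairs, called no member either. Counted after the values were seen, gene scores differed in 1 direction in all 3 pairs for 2 members at day 8 (TRRAP higher, INO80 lower) and 1 at day 14 (ACTR6 lower), where 34.3% and 32.3% of all genes did. NF1, whose loss is known to give BRAF inhibitor resistance, rose in the same libraries by 1.10 ± 0.22 at day 8 and 2.48 ± 0.39 at day 14 (edgeR/RRA adjusted p = 1.11e-09 and 1.64e-09). From day 0 to vemurafenib day 14 no member passed, where 3.23% of all genes did, with TRRAP at -1.91 ± 0.42 (edgeR/RRA adjusted p = 0.296). Of the member guides 12 were called in that comparison, 10 of them lower, where 6.62% of all guides were called. With the replicate block 26 were called, where 20.7% of all guides were. Gene scores of 9 of 10 members lay below every day-0 library, against 37.4% of all genes. limma on gene scores called 7 of 10 members lower, against 28.0% of all genes.

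The response of TRRAP guides to vemurafenib differed between the 2 epigenetic screens. In a joint fit of the day-0 and day-14 libraries, scaled together, the vemurafenib against DMSO change of TRRAP was lower in MED12 than in MED23 knockout cells by 2.99 ± 0.51 on the log2 scale (edgeR/RRA adjusted p = 0.000811). TRRAP was the 1 member of 10 that differed, where 3.14% of all genes were lower in MED12 cells. The difference was below 0 in 9 of 10 TRRAP guides, TRRAP_2 being the exception, although no member guide was called on its own, where 0.745% of all guides were. It passed in all 19 alternative fits, with adjusted p from 3.54e-05 to 0.0158 (edgeR/RRA, DESeq2 or limma). RUVBL1 differed by -2.39 ± 0.93 (edgeR/RRA adjusted p = 0.0961) and passed with the replicate block (0.0186) or without MED23 DMSO replicate 3. That block rests on replicate numbers, which do not pair all MED23 libraries. From day 0 to vemurafenib no member passed for a difference between the screens, where 2.33% of all genes did, with TRRAP at -1.30 ± 0.43 (edgeR/RRA adjusted p = 0.684). In that comparison 1 SRCAP guide was called, where 1.26% of all guides were. Knockout, drug dose and screen go together here and cannot be told apart.

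For DMSO against day 0 no member passed the test of a difference between the screens at the gene level, where 5.92% of all genes did. RUVBL1 was nearest, with a MED12 minus MED23 difference of 3.21 ± 0.78 (edgeR/RRA adjusted p = 0.0592), and its RUVBL1_8 and RUVBL1_9 guides were called, where 1.33% of all guides were. TRRAP differed by 1.70 ± 0.29 and RUVBL2 by 1.43 ± 0.25 (edgeR/RRA adjusted p = 0.108 for both). RUVBL1 passed with DESeq2 (adjusted p = 0.0480, with the same rank aggregation) and RUVBL1 and RUVBL2 with the replicate block (0.0368 and 0.00908). Replicate numbers do not pair all MED23 libraries, so the block is partly mismatched there. Left-out libraries moved the count of members that passed to between 0 and 3. MED12 DMSO replicate 1 or MED23 DMSO replicate 1 left out let RUVBL1 pass, and MED23 DMSO replicate 2 left out let RUVBL2 pass. Without MED23 DMSO replicate 3 all 3 passed. Guide by guide, 75 of 100 member guides had a lower DMSO change in MED23 than in MED12 cells, and so did 6874 of the 11150 guides to all genes. The guides' DMSO changes in the 2 screens, which share the guide designs, had a Pearson correlation of 0.511 over the 100 member guides and 0.461 over all gene guides. Within TRRAP it was 0.765 and within RUVBL1 -0.352, each over 10 guides.

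Other subunits of the same machines give the setting for these values. None of the 6 measured other INO80 subunits or 3 H2A.Z genes passed against DMSO or day 0 in MED23 knockout cells. Of all genes, 10.8% to 18.2% passed in these comparisons. Of 13 other TIP60 subunits 1 fell in DMSO, where 12.6% of all genes did. This was ACTL6A, an actin-related protein that also belongs to BAF remodellers, which fell by 3.98 ± 0.18 (edgeR/RRA adjusted p = 0.00142). It rose with vemurafenib against DMSO by 1.94 ± 0.20 (edgeR/RRA adjusted p = 0.0419) and stood at -2.03 ± 0.10 against day 0. ACTL6A was the 1 of 13 that rose against DMSO, where 7.80% of all genes did. MBTD1 (-0.61 ± 0.15) and MRGBP (-0.33 ± 0.20) fell against DMSO, where 2.96% of all genes did. From day 0 to vemurafenib 2 of 13 rose (EPC2 and MEAF6), where 6.01% of all genes did. In that comparison 3 fell (ACTL6A, MBTD1 and the H2A.Z binder VPS72, which SRCAP shares), where 10.2% of all genes did. Both rises were at most 0.72, where CTRL guides had a median log2 fold change of 1 in that comparison. The median change over the 4 other SRCAP subunits in DMSO was -1.48, with none past edgeR/RRA except VPS72 with drug. MYC, which recruits TRRAP, fell in DMSO by 1.91 ± 0.10 (edgeR/RRA adjusted p = 0.0152), rose against DMSO by 1.59 ± 0.17 (adjusted p = 0.0026, edgeR/RRA), and stood at -0.32 ± 0.14 against day 0. In MED12 knockout cells ACTL6A fell at day 8 in DMSO (-1.76 ± 0.07), where 4.93% of all genes fell. INO80D rose at days 8 and 14 (1.14 ± 0.13 at day 14, edgeR/RRA adjusted p = 0.000853), where 2.96% and 2.78% of all genes rose. No listed subunit passed there for vemurafenib against DMSO, where 1.70% of all genes did at day 8 and 1.43% at day 14.

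SAGA is the other complex that holds TRRAP. Of 14 subunits found in SAGA but not in TIP60, 11 rose with vemurafenib against DMSO in MED23 knockout cells and none fell, where 7.80% of all genes rose (median 1.94, against 0.17 over all genes). Examples were the adaptor TADA2B (5.85 ± 0.35) and TADA1 (4.12 ± 0.29), and the TAF-like subunits TAF6L (3.10 ± 0.19) and TAF5L (2.81 ± 0.20). In DMSO 3 of the 14 fell (CCDC101, TADA2B and USP22), where 12.6% of all genes fell, and 1 rose (SUPT3H), where 5.56% rose. SUPT3H rose by 0.42 ± 0.07, less than the shift of 0.58 that control-guide scaling makes there. From day 0 to vemurafenib 8 of the 14 rose and none fell, where 6.01% of all genes rose, TADA2B by 3.58 ± 0.32, while TRRAP stood at -0.52 and did not pass. The median over the 14 was 0.767 there, where CTRL guides had a median log2 fold change of 1. In MED12 minus MED23 cells 8 of the 14 were lower for vemurafenib against DMSO, where 3.14% of all genes were. These lists were chosen with results of these screens known, so their counts are a description.

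The genes whose scores followed each member most closely are given by the root-mean-square (RMS) difference in change from day 0 over the 6 later groups of both epigenetic screens. For TRRAP, WDR5 (0.404) is given. The nearest to RUVBL1 were PSMB3 (0.239) and CCT4 (0.262), and to RUVBL2 AURKA (0.123) and RPS27A (0.150), genes of the proteasome, the CCT chaperonin, mitosis and the ribosome. KAT5 was nearest to TUBGCP3 (0.138) and TP53RK (0.159), and INO80 to MLLT6 (0.0717) and CTR9 (0.105). SRCAP was nearest to USP36 (0.0996) and ZZZ3 (0.102), ACTR8 to RFC4 (0.0960) and ASH2L (0.108), and ACTR6 to RPL31 (0.112) and MORF4L2 (0.123). EP400 was nearest to NCOA6 (0.0700) and PHF2 (0.0836), and ACTR5 to RNF216 (0.0957) and RAI1 (0.106).

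In the whole-genome screen RUVBL1 was the 1 member that lost all reads in DMSO. Its 4 guides together had 617, 480 and 597 reads in the day-0 libraries, 22, 3 and 28 at day 8 in DMSO, and none in any of the 3 DMSO libraries at day 14. These guides started low, as the median over all guides of the library was 737 to 797 reads a guide at day 0. At a floor of 3 reads a library the day-14 level is at least 77.5-fold below day 0. RUVBL1 was the 1 member of 10 that fell at day 8, with a score change of -6.17 ± 0.38 (edgeR/RRA adjusted p = 0.00861), where 0.236% of all genes fell. It was also the 1 that fell at day 14 (edgeR/RRA adjusted p = 0.00531), where 0.120% did. Gene scores of 6 of 10 members lay below every day-0 library at each day, against 18.4% of all genes at day 8 and 30.6% at day 14. The fitted day-14 change of -7.42 depends on the small count added before taking logs, and with the guides at the floor it is -4.14. With vemurafenib at day 14 the changes at the floor were -4.02 for RUVBL1, -3.89 for SRCAP and -2.57 for INO80. Replicate numbers pair the libraries here, and with the replicate block the day-14 call was lost (edgeR/RRA adjusted p = 0.0742). A filter on guides of mean count under 100 removes the guides of RUVBL1, which then could not be tested. The day-14 call was also lost with DESeq2 (0.224) and without DMSO replicate 1 (0.0502) or 3 (0.0644), and the day-8 call without DMSO replicate 2 (0.0582). With vemurafenib the 4 guides had 55, 12 and 84 reads at day 8 and 0, 0 and 7 reads at day 14, so no fold between the arms is given for day 14.

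The other members had large but scattered values in the whole-genome screen. SRCAP went from 16.61, 17.38 and 15.65 CPM at day 0 to 9.175, 3.185 and 5.904 CPM at day 14 in DMSO and 6.047, 2.875 and 2.364 CPM with vemurafenib, which is 36.8% and 22.7% of the day-0 mean. Its score changes of -3.84 ± 0.38 and -4.88 ± 0.53 did not pass (edgeR/RRA adjusted p = 0.625 and 0.633), although its libraries did not overlap day 0. SRCAP_1 had no read in the vemurafenib libraries, and with it at the floor that change is -3.89. KAT5 stood at -3.60 ± 0.76 and RUVBL2 at -2.78 ± 0.79 in DMSO at day 14. INO80 stood at -3.98 ± 1.73, and INO80_2 had no read after day 0, so at the floor the change is -3.16. TRRAP_1 of this library, a guide numbered apart from the epigenetic library, had 787, 1013 and 1177 reads at day 0. At day 14 it had 3420, 1024 and 26803 reads in DMSO and 5927, 150 and 50169 with vemurafenib. Replicates 1 and 3 lay above day 0 in both arms, and replicate 2 lay below day 0 with drug. The guide was not called between the arms (log2 fold change 1.345). TRRAP_2, in contrast, went from 222, 249 and 380 reads to 0, 1 and 5 in DMSO and 0, 42 and 0 with vemurafenib. With guides so different between libraries of 1 group, the TRRAP score change was -2.24 ± 0.63 in DMSO and -1.78 ± 1.17 with drug (edgeR/RRA adjusted p = 1 for both).

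For vemurafenib against DMSO in the whole-genome screen, 0 of 10 members passed at day 8, where 0.0262% of all genes did. At day 14 no gene of 19101 passed (0%), and 1003 had an unadjusted p below 0.05 (edgeR/RRA). DESeq2 and limma likewise called no member at either day. The share of guides with no read grew from 0.227% to 0.262% at day 0 to 9.48% to 10.3% in the day-14 vemurafenib libraries, and all 10 members overlapped between the arms when taken as groups. Within replicate pairs, gene scores differed in 1 direction in all 3 pairs for 5 members at day 8 (ACTR6 lower, and TRRAP, RUVBL1, RUVBL2 and INO80 higher), where 27.3% of all genes did. At day 14 KAT5 was higher in all 3 pairs, where 28.5% of all genes differed in 1 direction. The replicate block called no member at either day. From day 0 to vemurafenib day 14, 0 of 10 members passed, where 0.0524% of all genes did.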

How the data were processed

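The authors deposited raw counts of reads per guide, one table per screen, from 39 libraries of guide DNA amplified by PCR from genomic DNA. The submitters' processing notes name bcl2fastq, HISAT2 and HTSeq, with versions and build not given in the sources used here. The protocols mention no molecular identifiers, so reads are not independent molecules.

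Counts were scaled by TMM and tested per guide with edgeR 4.0.16 (R 4.3.3; quasi-likelihood test, filterByExpr, all libraries of a table in one fit) and adjusted by Benjamini-Hochberg. Guides were ranked in each direction and combined per gene with at least 3 guides by robust rank aggregation (alpha 0.25, exact null). The gene p is doubled for 2 directions and adjusted over all genes. Gene scores used a prior count of 0.5. For MED12 against MED23, both epigenetic tables were joined at days 0 and 14 and scaled anew. The code was tested on simulated data.

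Named genes were the 10 members, listed genes that passed, NF1 and CUL3, and the 2 nearest genes of each member, of which 1 is not reported here. MAP2K1 and BRAF, and the direction within replicate pairs, were added after the values were seen. Members and lists were chosen with earlier results of these data known. Replicates differed by more than sampling noise in every group (chi-square per degree of freedom at least 19.2). In both MED12 screens same-numbered libraries deviated together (correlations 0.341 to 0.889 and 0.465 to 0.847, other numbers all below 0), so the numbers pair the libraries. Alternatives were DESeq2 1.42.0, limma 3.58.1 on gene scores, RLE and control-guide scaling, no filter, a mean count of at least 100, only the groups compared, a replicate block and each library left out. Guide sequences and target sites were not used here.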

Additional observations from a re-analysis of the deposited data

Results flagged for a closer look

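The vemurafenib response of TRRAP guides differed between MED12 and MED23 knockout cells by a test of the difference itself, with a MED12 minus MED23 value of -2.99 on the log2 scale (edgeR/RRA adjusted p = 0.000811). From day 0, TRRAP stood at -2.2 in DMSO and -1.91 with drug in MED12 cells, and at -4.02 and -0.52 in MED23 cells. The value thus holds the deeper loss in MED23 DMSO libraries as well as the drug arm. For neither arm alone did TRRAP pass for a difference between the screens. Screen, knockout and dose cannot be told apart. No group had more than 3 libraries, so single libraries were not tested for standing apart.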

How the results depend on the processing

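Of 462 alternative counts of called members or member guides, 366 were within 1.5 times the count reported. These include comparisons with a reported count of 0, some with hardly any gene or guide of the whole library called. The 366 therefore do not describe only the comparisons that had calls. Calls of single members kept their direction in all 171 alternative tests, of which 154 also stayed past the threshold.

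Members called. With limma on gene scores in place of rank aggregation, the members called (and the share of all genes called that way) were 4 lower for MED12 DMSO day 8 (11.2%), 7 lower for MED12 DMSO day 14 (28.2%), 7 lower for MED12 vemurafenib against day 0 (28.0%), 8 lower for MED23 DMSO (43.7%), 7 higher for MED23 vemurafenib against DMSO (33.2%) and 8 lower against day 0 (32.8%). In the whole-genome screen limma called 4 lower at DMSO day 14 (10.3%) and 4 lower for vemurafenib against day 0 (16.4%). Between the screens it called, as MED12 minus MED23, 3 higher for DMSO (15.2%), 3 lower for vemurafenib against DMSO (11.2%) and 1 lower against day 0 (5.02%). With guides of mean count under 100 removed, MED12 DMSO day 14 gave 0. The whole-genome DMSO comparisons gave 0 at day 8 and 0 at day 14, but there the filter left 8 members, without RUVBL1 and INO80, so RUVBL1 was not tested. With DESeq2, whole-genome DMSO day 14 gave 0 and DMSO between the screens 1. Control-guide scaling gave 1 for MED23 vemurafenib against day 0. With the replicate block, MED12 DMSO day 14 gave 2 lower (5.56% of all genes) and whole-genome DMSO day 14 gave 0 lower (0.0838%). Between the screens, as MED12 minus MED23, the block gave 2 higher for DMSO (3.86%) and 2 lower for vemurafenib against DMSO (3.86%). Counts without a percentage describe the fit and are not a result about the members.

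Member guides called. Fitting only the groups compared gave 2 for MED12 DMSO day 8, 0 for MED12 DMSO day 14, 0 for MED12 vemurafenib against day 0, 5 for MED23 vemurafenib against DMSO and 45 against day 0. DESeq2 gave 13 for MED12 DMSO day 14, 40 for MED23 vemurafenib against day 0, 5 and 6 in the whole-genome screen for DMSO and vemurafenib day 14 against day 0, and between the screens 11 for DMSO, 5 for vemurafenib against DMSO and 4 against day 0. Control-guide scaling gave 45 for MED23 vemurafenib against day 0, and between the screens 7 for DMSO and 2 for vemurafenib against DMSO. The replicate block gave 24 for MED12 DMSO day 14 (12.8% of all guides) and 26 (20.7%) for MED12 vemurafenib against day 0. It gave 4 (5.01%) for whole-genome vemurafenib against day 0 and 2 for vemurafenib between the screens. A percentage is the share of all guides called in the same fit. Counts without one describe the fit and are not a result about the members. The cause of the differences between fits was not tested.

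In the MED23 screen replicate numbers do not pair all libraries: same-numbered libraries correlated from -0.169 to 0.324 in their deviations, and DMSO replicates 1 and 2 with the other number of day 0 and vemurafenib at 0.249 to 0.307. With the replicate block there, 2 members were higher for vemurafenib against DMSO (RUVBL2 added), where 8.70% of all genes were. Against day 0, 1 was lower (INO80 lost, edgeR/RRA adjusted p = 0.0667), where 10.6% of all genes were. The block between the screens uses the same MED23 numbers.

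Leaving out 1 library at a time, members called ranged from 0 to 4 for MED12 DMSO day 8, 0 to 1 for MED12 DMSO day 14, 1 to 3 for MED23 vemurafenib against DMSO and 1 to 3 against day 0. They ranged from 0 to 1 for whole-genome DMSO at day 8 and 0 to 1 at day 14, and between the screens from 0 to 3 for DMSO and 1 to 2 for vemurafenib against DMSO. Member guides called ranged from 0 to 3 for MED12 DMSO day 14, 0 to 12 for MED12 vemurafenib against day 0 and 9 to 27 for MED23 vemurafenib against day 0. Between the screens they ranged from 1 to 4 for DMSO, 0 to 3 for vemurafenib against DMSO and 0 to 3 against day 0. No share of all genes or guides is set beside these ranges, so they are not a result about the members.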
